A study of Arabidopsis thaliana with 20 samples.

Results

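HR1, HR2, HR3 and HR4 are the 4 homologs of RESISTANCE TO POWDERY MILDEW 8 (RPW8) in the Arabidopsis thaliana reference accession Col-0. They were taken by gene identifier (AT3G50450, AT3G50460, AT3G50470 and AT3G50480), and make up 4 of the 32833 genes counted in shoot RNA. All 4 passed the low-count filter, HR2 through libraries of the autoimmune lines and no Col-0 library. HR4 and HR3 were higher in DM1-DM2d and DM6-DM7 than in their controls, both with intact ADR1 genes and without them. HR2 was high in the DM1-DM2d and DM6-DM7 lines with intact ADR1 genes, and HR1 stayed near the limit of counting in every group.

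RPW8-type proteins are small plant proteins with a predicted transmembrane or signal-peptide region at the amino end and a coiled coil, and the founding members RPW8.1 and RPW8.2, found in some accessions, give broad resistance to powdery mildew. RPW8.2 goes to the membrane around the fungal feeding structure, and its expression is raised by salicylic acid through a positive loop that needs EDS1 and PAD4. In hybrids between accessions, certain RPW8 or HR4 alleles (the DM7 locus) cause autoimmunity together with certain alleles of RPP7 (the DM6 locus), a nucleotide-binding leucine-rich repeat receptor (NLR).

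The DANGEROUS MIX (DM) lines were Col-0 plants transformed with constructs that hold a pair of incompatible genes. The groups were DM1-DM2d (n = 3) with Col-0 (n = 2), both 12 days after sowing (DAS) and labelled batch 1, and DM6-DM7 (n = 3) with Col-0 (n = 3), both 14 DAS and batch 2. Batch 3 held an adr1s version of DM1-DM2d, of DM6-DM7 and of Col-0 (n = 3 each, named DM1-DM2d adr1s and so on), in which ADR1, ADR1-L1 and ADR1-L2, helper NLR genes that act with EDS1 and PAD4, were knocked out with CRISPR-Cas9. The labels name these genotypes "adr1 triple" and give their replicates no age of their own. Plants grew on agar medium at 22 °C, and no pathogen treatment is recorded for any group. The promoters of the constructs and the number of independent lines are not given in the sources used here, and reads from an introduced DM7 transcript cannot be told apart in the deposited counts from reads of its Col-0 relatives where the sequences match. DM1-DM2d carries no introduced DM7.

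Libraries held 48360933 to 127276992 counts. Leaf and shoot markers were present in every group, with 6 markers summing to 1540 to 1920 counts per 1000000 (CPM) in DM1-DM2d against 38900 to 39100 CPM in Col-0 12 DAS. They summed to 18300 to 23700 CPM in DM6-DM7 against 71000 to 94900 CPM in Col-0 14 DAS. In the adr1s groups the sums were 23200 to 28900 CPM in DM1-DM2d adr1s and 24100 to 30000 CPM in DM6-DM7 adr1s, against 44300 to 50000 CPM in Col-0 adr1s. GL1, a regulator of leaf hairs, had no count in DM1-DM2d. The 8 root markers summed to at most 2.58 CPM in any library. Plastid genes took 10.9 ± 0.58% of counts in DM1-DM2d (SD, n = 3) against 42.0 ± 0.23% in Col-0 12 DAS (SD, n = 2), and at most 0.17% in any library of the other batches. The part of these differences in the HR values was not tested, and in bulk shoots fewer cells of a type cannot be told apart from less RNA per cell. Each group lies in 1 batch, so differences between batches and between groups of different batches cannot be told apart either.

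The 4 genes lie head to tail on the plus strand of chromosome 3 in the TAIR10.1 annotation, each with 2 exons and none overlapping another gene. HR1 spans 18722234 to 18723310, HR2 18727666 to 18728810, HR3 18728935 to 18730497 and HR4 18733021 to 18734420. HR2 and HR3 are separated by 124 bases, while 4355 bases separate HR1 from HR2 and 2523 separate HR3 from HR4. The coding sequences are 570, 618, 642 and 603 bases long, in the order HR1 to HR4. HR1, HR2 and HR3 share 77.4% to 79.1% of aligned coding bases with each other, and HR4 shares 63.3% with HR1, 64.8% with HR2 and 67.6% with HR3.

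These similarities bear on whether reads could be counted for the wrong member. The longest stretch of identical coding bases in any pair is 26 bases, between HR1 and HR2 at bases 289 to 314 of both coding sequences. It is shown in capitals within 20 bases of context on either side, to make visible how quickly the copies diverge around it.
HR1: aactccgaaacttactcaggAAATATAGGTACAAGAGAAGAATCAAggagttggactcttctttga
HR2: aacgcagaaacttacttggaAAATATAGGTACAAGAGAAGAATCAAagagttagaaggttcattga

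The longest such stretch between HR2 and HR3 is 21 bases, at bases 31 to 51 of both coding sequences, again in capitals.
HR2: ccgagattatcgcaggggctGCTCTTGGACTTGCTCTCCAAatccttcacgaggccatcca
HR3: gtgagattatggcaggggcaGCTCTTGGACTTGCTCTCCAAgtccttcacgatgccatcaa

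HR4 shares at most 13 consecutive exonic bases with any other member. No window of 150 bases, the read length in the labels, from the exons of 1 member occurred in another member, out of 777 windows in HR1, 804 in HR2, 1039 in HR3 and 907 in HR4. With shared stretches this short none could, so that count is no separate check. Matches with mismatches and the rest of the genome were not compared. Reads that match an introduced DM7 allele are not covered by this comparison.

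In DM1-DM2d and DM6-DM7, 3 of the 4 members were high and HR1 was not. The sequence directly upstream of each annotated start is printed here, on the plus strand of TAIR10.1, 5′ to 3′. The windows are chr3:18721984-18722233 for HR1, chr3:18727416-18727665 for HR2, chr3:18728811-18728934 for HR3 (the whole of the short gap to HR2) and chr3:18732771-18733020 for HR4. Capitals mark TTGAC, the core of the W box bound by WRKY factors, and TGACG, the core bound by TGA factors, each on either strand. The letters of the motifs overlap where TTGACG occurs, which it does in none of these windows.
HR1: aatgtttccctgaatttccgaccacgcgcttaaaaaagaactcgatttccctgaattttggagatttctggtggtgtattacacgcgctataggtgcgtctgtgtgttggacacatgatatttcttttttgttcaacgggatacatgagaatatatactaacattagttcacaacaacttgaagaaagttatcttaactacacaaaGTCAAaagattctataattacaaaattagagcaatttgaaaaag
HR2: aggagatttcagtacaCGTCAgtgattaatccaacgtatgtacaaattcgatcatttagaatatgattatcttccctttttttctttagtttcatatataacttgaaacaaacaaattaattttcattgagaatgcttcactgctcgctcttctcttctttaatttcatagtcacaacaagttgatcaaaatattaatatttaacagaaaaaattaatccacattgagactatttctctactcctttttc
HR3: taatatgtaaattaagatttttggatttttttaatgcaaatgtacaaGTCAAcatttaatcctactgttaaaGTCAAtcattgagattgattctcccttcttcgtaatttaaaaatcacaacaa
HR4: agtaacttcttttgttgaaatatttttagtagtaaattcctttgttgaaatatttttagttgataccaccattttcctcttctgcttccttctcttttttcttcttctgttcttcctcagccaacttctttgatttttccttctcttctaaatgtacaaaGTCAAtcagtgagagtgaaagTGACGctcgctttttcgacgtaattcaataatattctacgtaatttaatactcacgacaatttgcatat

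The HR3 window held TTGAC 2 times, on the minus strand at 77 to 73 and at 52 to 48 bases before the start. The HR4 window held it 1 time, on the minus strand at 90 to 86 bases, and held TGACG 1 time at 69 to 65 bases. HR1, which was low in every group, also held TTGAC 1 time (44 to 40 bases before the start), and HR2, which was high in the DM1-DM2d and DM6-DM7 lines, held no TTGAC and 1 TGACG (234 to 230 bases). Of 27561 windows of 250 bases upstream of protein-coding genes, 44.9% held TTGAC at least 1 time and 18.5% held TGACG. Of windows of 124 bases, 26.1% held TTGAC at least 1 time and 4.84% at least 2 times. A match describes these letters and is not a binding site. The HR3 window of 124 bases is shorter than the 250 bases of the others, so the counts are not on equal terms. Whether either motif had a part in the HR levels was not tested.

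HR4 was the abundant member of the family and ranked among the most abundant transcripts of DM1-DM2d shoots. It had 2310, 2240 and 2020 CPM in the 3 DM1-DM2d libraries, against 111 and 57.1 CPM in Col-0 12 DAS (2 libraries). It had 1100, 1110 and 1030 CPM in DM6-DM7, against 29.1, 166 and 47.3 CPM in Col-0 14 DAS. The lines lay far above every control library and varied little, whereas the control libraries of each age differed widely among themselves, with replicate 1 the higher at 12 DAS and replicate 2 the highest at 14 DAS. HR4 rose by 4.7 ± 0.63 on the log2 scale in DM1-DM2d (SE; p adjusted by Benjamini-Hochberg after edgeR's quasi-likelihood test, adjusted p = 5.58e-06), a ratio of means of 26.1. In DM6-DM7 it rose by 3.74 ± 0.51 (SE, adjusted p = 9.68e-06), a ratio of means of 13.4.

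Without the ADR1 genes HR4 was lower in the lines but still above its control. It had 238, 259 and 284 CPM in DM1-DM2d adr1s and 268, 436 and 464 CPM in DM6-DM7 adr1s, against 26.7, 32.5 and 45.1 CPM in Col-0 adr1s. No library of either line overlapped the control. HR4 rose by 2.9 ± 0.49 on the log2 scale in DM1-DM2d adr1s (SE, edgeR, adjusted p = 0.000194) and by 3.48 ± 0.5 in DM6-DM7 adr1s (SE, adjusted p = 8.01e-05), both against the same Col-0 adr1s libraries. Ranked per exonic length among 32548 nuclear genes, HR4 was the gene at place 9 from the top in DM1-DM2d and at place 991 in Col-0 12 DAS. Its place was 51 in DM6-DM7, against 1374 in Col-0 14 DAS. In the adr1s background the place was 239 with DM1-DM2d and 143 with DM6-DM7, against 2874 in Col-0 adr1s.

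HR3, whose product has no well-described role of its own, followed the same groups at a much lower level. It had 44.3, 47.8 and 46.9 CPM in DM1-DM2d, against 1.09 and 0.637 CPM in Col-0 12 DAS. It had 15.5, 15.0 and 13.9 CPM in DM6-DM7, against 0.04, 0.751 and 0.54 CPM in Col-0 14 DAS. The lines were tight and the controls low and scattered, with only 4 counts in Col-0 14 DAS replicate 1. HR3 rose by 5.74 ± 0.63 on the log2 scale in DM1-DM2d (SE, edgeR, adjusted p = 4.74e-07) and by 5.05 ± 0.52 in DM6-DM7 (SE, adjusted p = 4.56e-07), ratios of means of 53.8 and 33.3.

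In the adr1s background HR3 had 2.61, 1.92 and 4.53 CPM in DM1-DM2d adr1s and 3.68, 4.58 and 5.21 CPM in DM6-DM7 adr1s, against 0.196, 0.134 and 0.324 CPM in Col-0 adr1s. Every line library was above every control library, and the lines overlapped each other. The rise was 3.76 ± 0.59 on the log2 scale in DM1-DM2d adr1s (SE, edgeR, adjusted p = 9.63e-05) and 4.33 ± 0.59 in DM6-DM7 adr1s (SE, adjusted p = 4.23e-05).

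**Figure D1:**
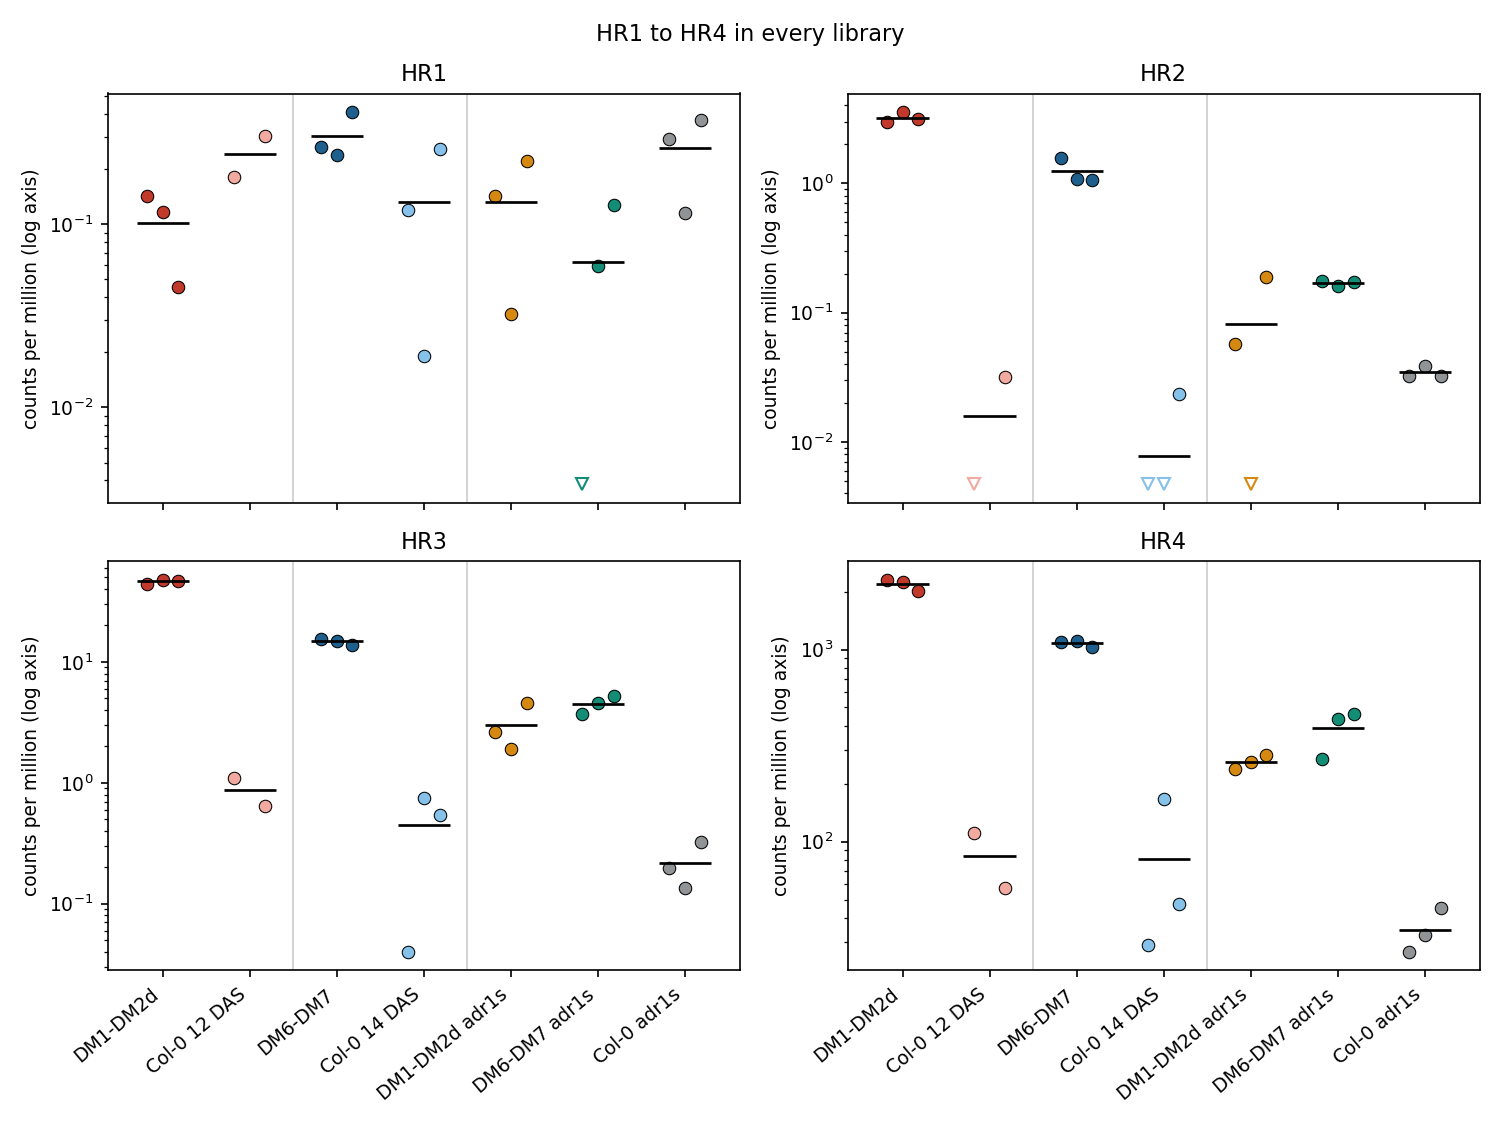
HR1, HR2, HR3 and HR4 in CPM (log axis, a different range in each panel), 1 point per library, with the group mean as a bar and libraries with no count as open triangles at the foot of the panel. HR3 and HR4 lie highest in DM1-DM2d, next in DM6-DM7 and above Col-0 adr1s in both adr1s lines, HR2 is high in DM1-DM2d and DM6-DM7, and the groups overlap for HR1.

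HR2, the neighbour of HR3 across the short gap, was nearly silent in the controls. It had 275, 303 and 273 counts in the DM1-DM2d libraries, against 0 and 2 counts in Col-0 12 DAS. It had 160, 133 and 119 counts in DM6-DM7, against 0, 0 and 2 counts in Col-0 14 DAS. Scaled to library size, the lines averaged 3.22 ± 0.29 CPM in DM1-DM2d and 1.23 ± 0.29 CPM in DM6-DM7 (SD, n = 3 each), so HR2 remained a weakly expressed gene where it was highest. The ratio of summed counts was 208 in DM1-DM2d (95% exact conditional interval 57.3 to 1720) and 176 in DM6-DM7 (48.5 to 1460). With mates counted as 1 fragment the intervals widened to 37.0 to 8210 and 31.3 to 6990, and they cover counting error only. No Col-0 library helped HR2 pass the low-count filter, so the test is given from the fit with no such filter. There the edgeR adjusted p was 2.36e-06 in DM1-DM2d and 1.25e-06 in DM6-DM7.

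The adr1s lines held little HR2. It had 4, 0 and 12 counts in DM1-DM2d adr1s and 11 counts in each DM6-DM7 adr1s library, against 2 counts in each Col-0 adr1s library. DM1-DM2d adr1s overlapped the control, with 2 libraries above it and 1 below, and DM6-DM7 adr1s lay above it. The ratio of summed counts was 2.39 in DM1-DM2d adr1s (0.89 to 7.47, or 0.575 to 14.0 with mates counted as 1 fragment). The fitted log2 change of 1.22 ± 0.9 in DM1-DM2d adr1s did not pass the test (SE, edgeR, adjusted p = 0.298). Without DM1-DM2d adr1s replicate 3 that change was -0.22. In DM6-DM7 adr1s the ratio was 4.98 (2.06 to 14.5, or 1.38 to 25.8 with mates counted as 1 fragment). The log2 change there was 2.26 ± 0.84 (SE, edgeR, adjusted p = 0.0483). That call was lost with any of the 6 libraries left out, under other scalings and without the low-count filter.

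HR1, at the left end of the cluster, gave no call in any comparison. It had 13, 10 and 4 counts in DM1-DM2d, against 12 and 19 counts in Col-0 12 DAS, and in CPM all 3 line libraries were below both controls. It had 27, 30 and 46 counts in DM6-DM7, against 12, 2 and 22 counts in Col-0 14 DAS. In batch 3 it had 10, 2 and 14 counts in DM1-DM2d adr1s and 0, 4 and 8 counts in DM6-DM7 adr1s, against 18, 6 and 23 counts in Col-0 adr1s. The log2 changes were -1.24 ± 1 in DM1-DM2d (95% interval -3.35 to 0.88), 1.21 ± 0.89 in DM6-DM7 (-0.66 to 3.08), -0.97 ± 0.92 in DM1-DM2d adr1s (-2.91 to 0.96) and -2.05 ± 0.98 in DM6-DM7 adr1s (-4.12 to 0.02). The edgeR adjusted p ran from 0.127 to 0.422. These intervals are wide, so the values do not exclude a change of HR1 of a size within them.

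Counted together, 3 of 4 members were higher in DM1-DM2d and 3 of 4 in DM6-DM7, where 36.6% and 35% of 23349 genes were called higher (73% and 64.8% in either direction). In DM1-DM2d adr1s 2 of 4 were higher, and 23.9% of all genes were called higher (42.7% in either direction). In DM6-DM7 adr1s 3 of 4 were higher, and 18.6% of all genes were called higher (31.2% in either direction). A call alone therefore says little about any gene in these lines, and no Col-0 library helped HR2 pass the filter. Nothing is read from these counts. The median gene's log2 change was 0 in DM1-DM2d and 0.06 in DM6-DM7, and in adr1s 0.03 with DM1-DM2d and 0.02 with DM6-DM7.

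**Figure D2:**
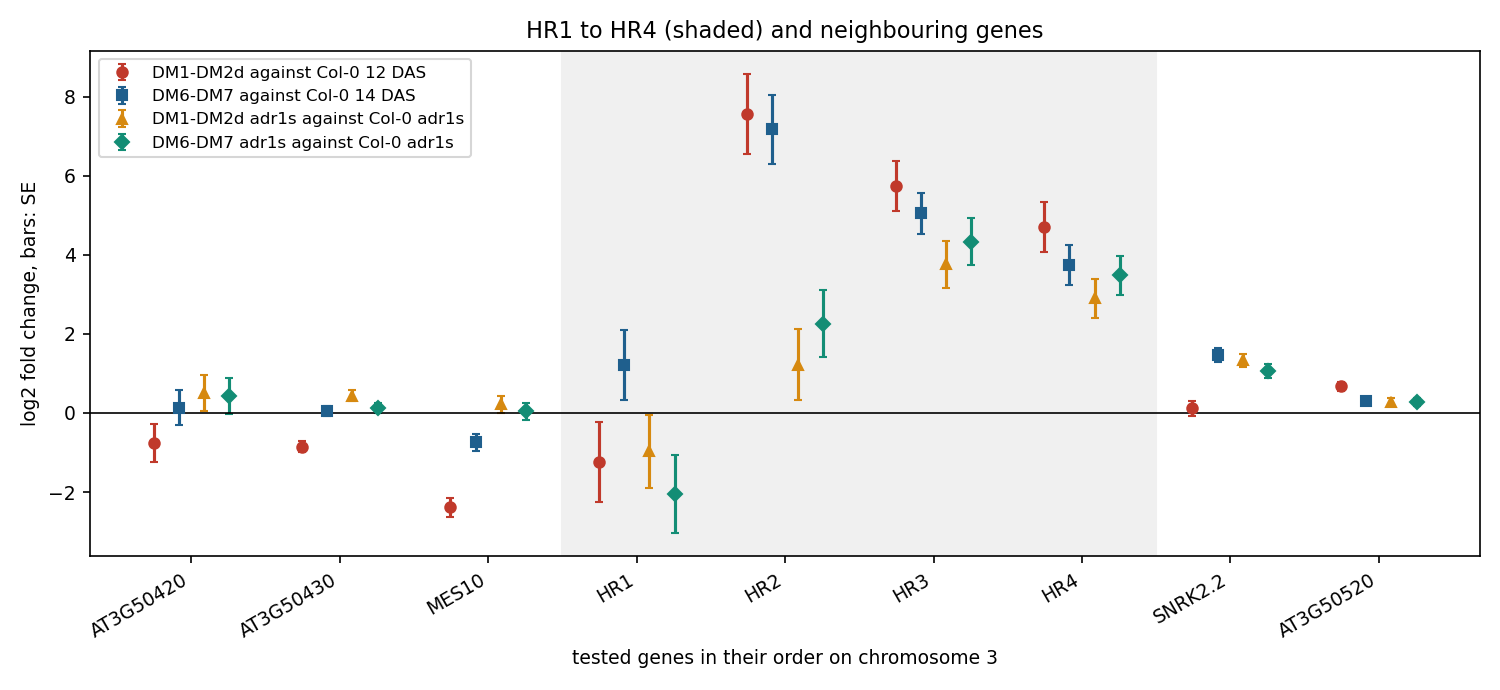
Log2 fold change of the 4 lines, each relative to Col-0 of the same batch (bars are SE) for HR1 to HR4 (shaded) and the tested neighbours, in their order along chromosome 3. HR3 and HR4 stand at 3.74 to 5.74 in DM1-DM2d and DM6-DM7, while the neighbours lie between -2.38 and 1.47 in all 4 lines, and the height of HR2 in DM1-DM2d and DM6-DM7 depends on the prior count.

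The genes on either side moved by smaller amounts than HR3 and HR4 and in both directions, and the difference itself was not tested. MES10, a methyl esterase gene to the left of HR1, fell by 2.38 ± 0.24 on the log2 scale in DM1-DM2d (SE, edgeR, adjusted p = 8.5e-08) and by 0.74 ± 0.21 in DM6-DM7 (SE, adjusted p = 0.00526). Its values in the adr1s lines, 0.22 with DM1-DM2d and 0.04 with DM6-DM7, did not pass. SNRK2.2, a kinase of abscisic acid signalling to the right of HR4, was at 0.12 ± 0.19 in DM1-DM2d (SE, adjusted p = 0.596). It rose by 1.47 ± 0.17 in DM6-DM7, by 1.33 ± 0.17 in DM1-DM2d adr1s and by 1.06 ± 0.17 in DM6-DM7 adr1s (SE, largest adjusted p = 0.000163). AT3G50520, annotated as a phosphoglycerate mutase family gene, rose in all 4 comparisons by 0.28 to 0.67. AT3G50430, annotated as a golgin, fell by 0.85 in DM1-DM2d and rose by 0.44 in DM1-DM2d adr1s, and it overlaps the end of MES10 on the opposite strand, where the strand setting used in counting is not given. AT3G50420 gave no call, and LBD28 had too few counts to be tested.

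The ratio of HR4 to HR3 differed between groups. Per 1000 exonic bases HR4 held 97.7% to 99.6% of the summed level of the 4 genes in every library. The HR4 to HR3 ratio was 46.0 to 55.7 in DM1-DM2d libraries against 96.0 to 109 in Col-0 12 DAS. The ratio was 75.8 to 79.5 in DM6-DM7 against 93.8 to 780 in Col-0 14 DAS, where the top value belongs to the library with 4 HR3 counts. In batch 3 it was 67.1 to 145 in DM1-DM2d adr1s and 77.9 to 102 in DM6-DM7 adr1s, against 146 to 259 in Col-0 adr1s. In each batch every line library had a lower ratio than every control library, so HR3 made up a larger share of the cluster where both were high, a difference given here as values with no test.

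**Figure D3:**
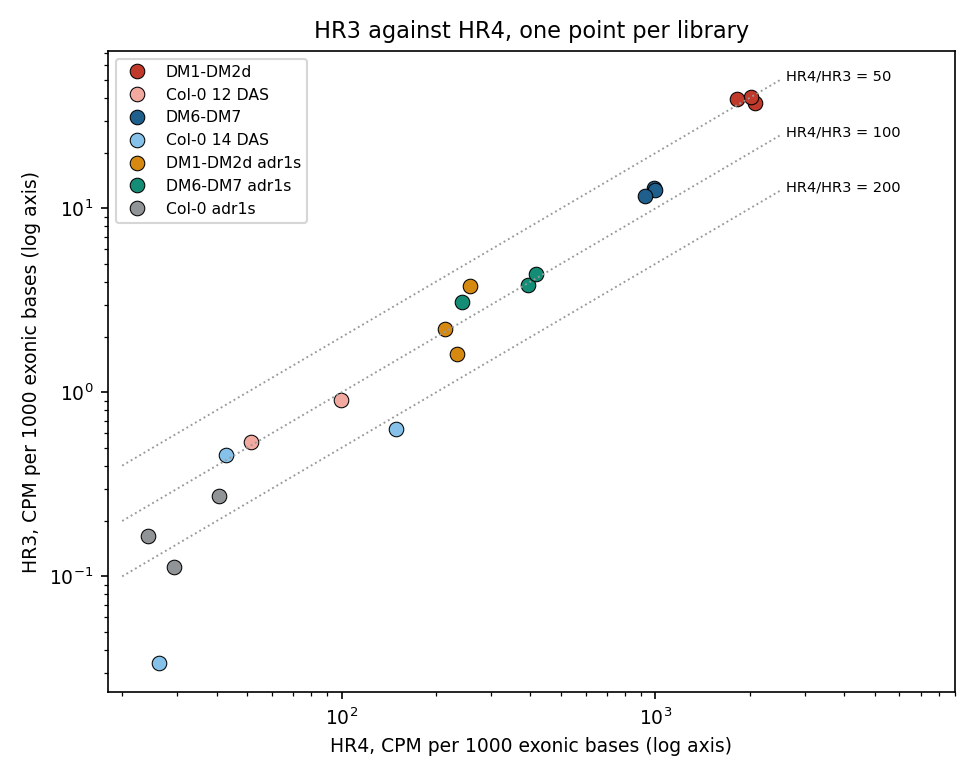
HR3 against HR4, both in CPM per 1000 exonic bases on log axes, 1 point per library, with dotted lines at fixed HR4 to HR3 ratios of 50, 100 and 200. The points climb more steeply than the dotted lines, with DM1-DM2d at 46.0 to 55.7 and Col-0 adr1s at 146 to 259.

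For HR3 and HR4 the 7 groups fell in the same order. From high to low, HR4 averaged 2190 ± 150 CPM in DM1-DM2d, 1080 ± 44 CPM in DM6-DM7, 389 ± 110 CPM in DM6-DM7 adr1s, 260 ± 23 CPM in DM1-DM2d adr1s, 83.9 ± 38 CPM in Col-0 12 DAS, 80.7 ± 74 CPM in Col-0 14 DAS and 34.8 ± 9.4 CPM in Col-0 adr1s (SD, n = 3 each, 2 for Col-0 12 DAS). HR3 averaged 46.4 ± 1.8, 14.8 ± 0.83, 4.49 ± 0.77, 3.02 ± 1.4, 0.862 ± 0.32, 0.444 ± 0.37 and 0.218 ± 0.097 CPM in the same order. For both genes the libraries of neighbouring groups overlapped between the adr1s lines and among the 3 Col-0 groups, and did not overlap at the other steps. HR2 kept DM1-DM2d and DM6-DM7 apart from each other and from the rest, and for HR1 every pair of neighbouring groups overlapped. Steps between batches are descriptions, as stated above.

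Whether the rise of each member differed without the ADR1 genes was tested as the effect of a gene pair minus its effect in adr1s. In DM1-DM2d that difference was 1.8 ± 0.7 on the log2 scale for HR4 (SE, edgeR, adjusted p = 0.0368, 95% interval 0.32 to 3.29) and 1.98 ± 0.86 for HR3 (adjusted p = 0.0605, 0.14 to 3.82). For HR2 the difference passed in the fit with no low-count filter (adjusted p = 0.00161), but its size depends on the prior count because the controls were at or near 0. For HR1 it was -0.26 ± 1.35 (adjusted p = 0.904). Thus 2 of 4 members were called with a larger rise with intact ADR1 genes, where 26% of all genes differed in that direction and 58.5% in either. The HR4 call was lost in 7 of the 11 fits that left out 1 library, with adjusted p of 0.0573 to 0.19, the largest without Col-0 12 DAS replicate 2, where the difference was 1.35. The HR3 difference passed without DM1-DM2d adr1s replicate 3 (2.37, adjusted p = 0.0312).

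In DM6-DM7 the difference was 0.26 ± 0.64 for HR4 (SE, edgeR, adjusted p = 0.817, 95% interval -1.11 to 1.63) and 0.72 ± 0.82 for HR3 (adjusted p = 0.549, -1.01 to 2.45). The HR4 value rested on a control library: without Col-0 14 DAS replicate 2 it was 1.26 (adjusted p = 0.0231), and without replicate 1 or 3 it was -0.14 or -0.12. HR2 again passed in the fit with no low-count filter (adjusted p = 0.015), with a size that depends on the prior count, and for HR1 the difference was 3.26 ± 1.32 (adjusted p = 0.0705). So 1 of 4 members was called, against 14.9% of all genes in that direction and 31.2% in either. HR1 passed without Col-0 14 DAS replicate 3 (4.11, adjusted p = 0.0301) and without DM6-DM7 adr1s replicate 3 (4.18, adjusted p = 0.0476). These differences span batches 1 or 2 and batch 3, each against its own Col-0 group. The depth differed too (48360933 to 58867219 counts in the adr1s libraries and at least 86880565 in the others). Both adr1s lines share the same Col-0 adr1s libraries, and the labels give the adr1s replicates no age of their own. Whether plant age matched between the backgrounds is therefore not known from the labels.

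**Figure D4:**
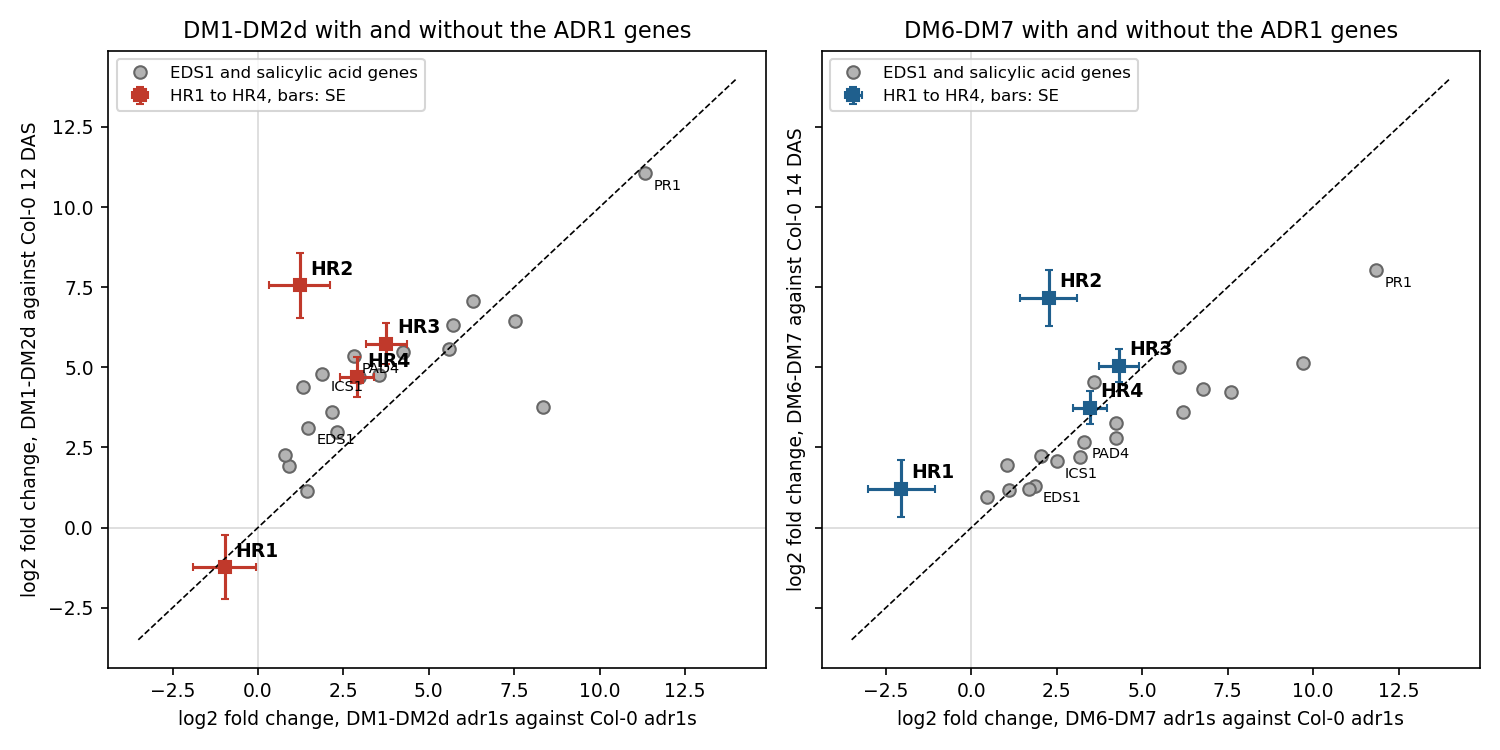
Log2 fold change with intact ADR1 genes (vertical) against the change in adr1s (horizontal) for HR1 to HR4 (squares, bars are SE) and 18 genes of the EDS1 and salicylic acid pathway (circles), for DM1-DM2d on the left and DM6-DM7 on the right. HR4 lies near the dashed line of equal change in DM6-DM7 (3.74 against 3.48) and above it in DM1-DM2d (4.7 against 2.9), and the vertical position of HR2 depends on the prior count, its controls holding 0 to 2 counts a library.

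No member was called between the gene pairs. The effect of DM1-DM2d less that of DM6-DM7 was 0.96 ± 0.69 for HR4 (SE, edgeR, adjusted p = 0.267, 95% interval -0.5 to 2.43) and 0.69 ± 0.73 for HR3 (adjusted p = 0.464). For HR2 it was 0.39 ± 3.08 (adjusted p = 0.949, -6.11 to 6.89), a size that depends on the prior count. For HR1 it was -2.44 ± 1.34 (adjusted p = 0.142), and 49.3% of all genes were called in that comparison. The HR4 difference was -0.11 without Col-0 14 DAS replicate 2, and the HR3 difference passed without Col-0 14 DAS replicate 1 (1.24, adjusted p = 0.0265). Between DM1-DM2d adr1s and DM6-DM7 adr1s, which share a batch, the log2 difference was -0.58 ± 0.46 for HR4 (SE, adjusted p = 0.493, 95% interval -1.55 to 0.39) and -0.57 ± 0.44 for HR3 (adjusted p = 0.481). It was -1.04 ± 0.72 for HR2 (adjusted p = 0.424) and 1.08 ± 0.99 for HR1 (adjusted p = 0.569), with 8.91% of all genes called. These adr1s lines differ in the whole introduced gene pair, and the part of an introduced DM7 in these values was not tested. Whether they also differ in age is not known, as the labels give their replicates none.

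The EDS1 and salicylic acid pathway, which is known to raise RPW8 transcription, was high in the same lines. All 18 of its listed genes were higher in each of the 4 comparisons, with median log2 changes of 4.73 in DM1-DM2d and 2.74 in DM6-DM7, and in adr1s 2.87 with DM1-DM2d and 3.44 with DM6-DM7. The shares of all genes called higher were 36.6%, 35%, 23.9% and 18.6% in that order. Whether the pathway had a part in the HR levels was not tested. PAD4, the lipase-like partner of EDS1, rose by 5.35 ± 0.52 in DM1-DM2d and 2.68 ± 0.38 in DM6-DM7, and in adr1s by 2.8 ± 0.39 with DM1-DM2d and 3.29 ± 0.4 with DM6-DM7 (SE, edgeR, largest adjusted p = 3.37e-05). ICS1, the enzyme of salicylic acid synthesis, rose by 4.78 ± 0.6, 2.08 ± 0.45, 1.87 ± 0.45 and 2.5 ± 0.46 in the same order (largest adjusted p = 0.00316). Single genes of the pathway also differed among the control libraries. In Col-0 12 DAS replicate 1, where HR4 was 111 CPM, PR1, the secreted marker of salicylic acid responses, had 19.9 CPM and ICS1 41.9 CPM, and in replicate 2, with HR4 at 57.1 CPM, PR1 had 1.78 CPM and ICS1 7.93 CPM. In Col-0 14 DAS replicate 2, with HR4 at 166 CPM, PR1 had 51.1 CPM and ICS1 44.3 CPM, the highest of that group for all 3 genes. EDS1 did not follow HR4 throughout that group, with 27.5 CPM in replicate 3 and 29.7 CPM in replicate 1, where HR4 was lower. In Col-0 adr1s, where HR4 was 26.7, 32.5 and 45.1 CPM, PR1 had 0.13, 0.192 and 0.535 CPM and ICS1 14.6, 14.0 and 13.5 CPM, so ICS1 was lowest where HR4 was highest. Whether the 18 genes and HR4 varied together among controls was not tested. The part of this control spread in the fold changes was not tested beyond the fits without each library.

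Helper NLR genes with an RPW8-type domain, listed together with relatives that need not carry it, formed a further group of 8, of which 7 could be tested. In DM1-DM2d and in DM6-DM7 7 of 7 were higher, and in DM1-DM2d adr1s and DM6-DM7 adr1s 6 of 7, none lower, with medians of 2.77, 2.19, 1.68 and 1.48. The list includes ADR1, ADR1-L1 and ADR1-L2, the genes knocked out in adr1s. The adr1s counts and medians therefore mix transcripts of edited and intact genes. ADR1 rose by 3.12 ± 0.25 in DM1-DM2d and 2.19 ± 0.2 in DM6-DM7, and in adr1s by 2.63 ± 0.21 with DM1-DM2d and 1.9 ± 0.2 with DM6-DM7 (SE, edgeR, largest adjusted p = 3.74e-06), so its transcript was counted in the knockout background too. Of 10 genes of the RPP7 cluster, the locus that partners RPW8 and HR4 alleles in hybrid autoimmunity, 5 were higher in DM1-DM2d and 8 in DM6-DM7, and in adr1s 5 with DM1-DM2d and 4 with DM6-DM7, and none was lower, with medians of 0.3, 1.56, 0.44 and 0.46. The shares of all genes called higher were 36.6%, 35%, 23.9% and 18.6% in that order, so the count in DM1-DM2d lay close to the background. RPP7 itself rose by 0.37 ± 0.12, 0.78 ± 0.11, 0.52 ± 0.11 and 0.62 ± 0.11 in that order (SE, largest adjusted p = 0.0121). These receptors are near copies of each other and, in DM6-DM7 and DM6-DM7 adr1s, of the introduced DM6, so reads may have been split among them.

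A last list held 14 genes tied to RPW8.2 function or to powdery mildew entry. Of these, 9 were higher and 3 lower in DM1-DM2d, 11 and 0 in DM6-DM7, 11 and 1 in DM1-DM2d adr1s and 9 and 0 in DM6-DM7 adr1s, with medians of 1.28, 0.73, 0.87 and 0.58. Of all genes, 36.6%, 35%, 23.9% and 18.6% were called higher in that order. In either direction 73%, 64.8%, 42.7% and 31.2% were called. MLO2, a susceptibility gene for powdery mildew, rose by 2.16 ± 0.15 in DM1-DM2d and 1.64 ± 0.13 in DM6-DM7, and in adr1s by 0.9 ± 0.13 with DM1-DM2d and 0.69 ± 0.13 with DM6-DM7 (SE, edgeR, largest adjusted p = 0.000452). PEN3, a transporter in entry resistance, was at 0.25 ± 0.24 in DM1-DM2d (SE, adjusted p = 0.372) and rose by 1.67 ± 0.22 in DM6-DM7, and in adr1s by 2.05 ± 0.22 with DM1-DM2d and 1.4 ± 0.22 with DM6-DM7 (largest adjusted p = 0.000117). GRF6, a 14-3-3 protein that binds RPW8.2, rose by 0.34 ± 0.09 in DM1-DM2d (adjusted p = 0.0029), fell by 0.31 ± 0.08 in DM1-DM2d adr1s (adjusted p = 0.00491) and did not pass in the DM6-DM7 lines (0.02 and -0.16).

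Genes with the most similar profiles were looked for by Pearson's r of log2(CPM + 0.5) over the 20 libraries, among 17126 tested genes with a mean of at least 2 CPM. These r values describe libraries that share groups, batches and scaling. For HR4 they were AT4G17660, annotated as a protein kinase (r = 0.995), AT1G10340, an ankyrin repeat family gene (0.993), and AT5G09290, an inositol monophosphatase family gene (0.992). AT1G10340 averaged 261 ± 16 CPM in DM1-DM2d against 3.39 ± 2.0 in Col-0 12 DAS (SD, n = 3 and 2), and 99.4 ± 3.0 in DM6-DM7 against 4.64 ± 5.1 in Col-0 14 DAS (SD, n = 3 each). For HR3 they were scpl16, a serine carboxypeptidase-like gene (0.995), CPK31, a calcium-dependent protein kinase (0.993), and ATBFRUCT1, a cell wall invertase (0.993).

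For HR2 the closest were CAT2, a cationic amino acid transporter (0.988), scpl14, the neighbour of scpl16 (0.987), and GER2, a germin-like protein (0.986). Outside DM1-DM2d and DM6-DM7 HR2 was at most 0.189 CPM, below the 0.5 added before the log. Its r values therefore rest mainly on DM1-DM2d and DM6-DM7 against the rest. GER2 averaged 149 ± 11 CPM in DM1-DM2d against 1.81 ± 0.09 in Col-0 12 DAS, 25.9 ± 1.6 in DM6-DM7 against 0.928 ± 0.39 in Col-0 14 DAS, and in adr1s 1.22 ± 0.22 with DM1-DM2d and 1.89 ± 0.72 with DM6-DM7 against 0.988 ± 0.2 in Col-0 (SD, n = 3 each, 2 for Col-0 12 DAS). CAT2 had a higher base level, with 236 ± 19 CPM in DM1-DM2d against 45.3 ± 0.087 in Col-0 12 DAS and 54.0 ± 5.3 in DM6-DM7 adr1s against 49.3 ± 2.1 in Col-0 adr1s. In adr1s CAT2 gave no call, and GER2 was called with DM6-DM7 (0.95 ± 0.3 on the log2 scale, SE, edgeR, adjusted p = 0.0244) but not with DM1-DM2d (0.31 ± 0.31, adjusted p = 0.458). The level of scpl14 was low in adr1s, at 0.207 ± 0.2 CPM with DM1-DM2d and 0.776 ± 0.29 CPM with DM6-DM7 (SD, n = 3 each), but no Col-0 adr1s library held a count and both lines were called higher (edgeR, adjusted p = 0.00411 and 0.000131). All of the genes named here for HR2, HR3 and HR4 were called higher in both lines with intact ADR1 genes. They were picked for likeness to members high in those lines, so nothing is read from these calls. For HR1 no gene passed an r of 0.659 (AT3G54440, a glycoside hydrolase family gene), and HR1 was at most 0.41 CPM in any library, also below 0.5. Among the members r was 0.979 for HR3 with HR4, 0.925 for HR2 with HR3 and 0.854 for HR2 with HR4, and -0.191 to -0.002 for HR1 with the others.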

How the data were processed

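Counts per gene were deposited as raw whole numbers with no normalization, for 20 strand-specific shoot libraries read as 150-base pairs per the labels. Per the submitters' processing notes, the tools used included HISAT2 2.2.1, fastp 0.23.2 and featureCounts 2.0.1, and the build was TAIR10. Counting options are not given in the sources used here. Between 64.9% and 78% of counts of 1 to 19 were even, as when both mates of a fragment are counted. Groups came from the labels. Identifiers matched the annotation for 32548 genes (99.1%), and the rest were plastid (133) and mitochondrial (152) genes.

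The 20 libraries were fitted together, by group, in edgeR 4.0.16 (R 4.3.3), with TMM scaling, filterByExpr at a minimum count of 10 (23349 genes kept), a robust quasi-likelihood test and Benjamini-Hochberg adjustment within each of 8 contrasts at 0.05. The SE is the log2 change divided by the square root of F. CPM uses TMM-scaled library sizes, and per-length levels divide by exonic bases. p-values measure only the spread between these libraries, which the labels call biological replicates. Scripts were tested on simulated data. Alternatives were RLE and upper-quartile scaling, no filter or a minimum of 50, DESeq2 1.42.0, organelle genes left out, only the groups compared, a replicate block, an adjusted p of 0.01 and each library left out.

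The members and lists were chosen with earlier results of these data known. Named besides the members were, by rule, the 3 genes most like each member, the 3 protein-coding neighbours on either side, and from each list the 3 highest by mean CPM and PR1, EDS1, PAD4, ICS1, ADR1 and RPP7. Sequences and positions are from RefSeq, TAIR10.1, whose nuclear coordinates are those of TAIR10.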

Additional observations from a re-analysis of the deposited data

Results flagged for a closer look

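For 3 results the effect of a gene pair differed from its effect in the adr1s background by the test of the difference itself (edgeR, Benjamini-Hochberg adjusted). HR2 had fitted log2 differences of 6.33 in DM1-DM2d and 4.9 in DM6-DM7, whose size depends on the prior count, since the 12 DAS and 14 DAS controls held 2 counts in all in each group. No Col-0 library helped HR2 pass the low-count filter. In the fit with no such filter the edgeR adjusted p was 0.00161 in DM1-DM2d and 0.015 in DM6-DM7. HR2 was above every control library in 3 of 3 libraries of DM1-DM2d, DM6-DM7 and DM6-DM7 adr1s, and in 2 of 3 of DM1-DM2d adr1s. HR4 differed by 1.8 in DM1-DM2d (adjusted p = 0.0368), with 3 of 3 line libraries above the controls in both backgrounds. The backgrounds were in different label batches, and the labels give the adr1s replicates no age of their own. What part batch or age had in these differences was not tested.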

How the results depend on the processing

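The rises of HR3 and HR4 in all 4 lines and of HR2 in DM1-DM2d and DM6-DM7 passed the test in every fit that kept them. HR2 in DM6-DM7 adr1s did not pass under RLE (2.23), upper quartile (2.22), no filter (2.26) or an adjusted p of 0.01 (2.26). The HR4 difference in DM1-DM2d did not pass under upper quartile (1.53), no filter (1.8) or 0.01 (1.8), nor the HR2 difference in DM6-DM7 at 0.01 (4.9). The HR3 difference in DM1-DM2d passed with DESeq2 (2.04) and with only the groups compared (1.98), and the HR1 difference in DM6-DM7 with DESeq2 (3.22). The cause was not tested.

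The replicate numbers did not pair the samples (r of deviations -0.03 to 0.05). With the replicate block HR2 in DM6-DM7 adr1s did not pass (2.34, adjusted p = 0.0944) and the HR1 difference in DM1-DM2d was 0.21, and no other member's call changed.

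Leaving out each library in turn, the HR1 difference in DM1-DM2d ran from -0.73 to 0.28 and in DM6-DM7 from 2.62 to 4.18. The HR4 difference ran from 1.35 to 2.34 in DM1-DM2d and from -0.14 to 1.26 in DM6-DM7, and the HR3 difference in DM1-DM2d from 1.58 to 2.41. The DM1-DM2d minus DM6-DM7 effect ran from -2.11 to 3.88 for HR2, 0.03 to 1.24 for HR3 and -0.11 to 1.57 for HR4. HR2 ran from -0.22 to 1.74 in DM1-DM2d adr1s and from 2.22 to 2.32 in DM6-DM7 adr1s. The rise of HR4 in DM6-DM7 was 4.74 without Col-0 14 DAS replicate 2, and that of HR3 5.64. Where 1 library was left of a group, its spread was assumed to be that of the others.

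At an adjusted p of 0.01, 4799 genes were called in DM6-DM7 adr1s (7290 at 0.05), 4177 in the DM6-DM7 difference (7277) and 775 between the adr1s lines (2080), where only the groups compared gave 3469 and leaving out a library 994 to 1705. Levels moved by 0.893 to 1.15 times under other scalings. With a minimum count of 50 HR1 was not fitted, and with only the groups compared low members were filtered out. HR1, and HR2 in the controls, rest on 0 to 46 counts a library, which limits what they can show.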
